A study of Mus musculus with 20 samples.

Results

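The 14 forebrain slice libraries taken after 24 h in serum were ranked by Cxcl10, the gene of an interferon-induced chemokine, and the 7 highest were set against the 7 lowest. They are 14 of the 20 libraries of the series, and all 14 libraries of the 24 h table entered. The groups were chosen by the measured Cxcl10 level itself, as CPM, the count of the gene relative to all counts of the library. Differences between the Cxcl10-high and Cxcl10-low libraries are therefore a description of what goes with Cxcl10, with no test of a treatment, and Cxcl10 itself is left out of the results.

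All slices were cut from the forebrain of mouse pups at postnatal day 4 and cultured with 5% horse serum for 24 h, and the study asks what TSG-6, the hyaluronan-binding protein encoded by Tnfaip6, does in injured brain. The labels give 3 heterozygous (Het) and 4 knockout (KO) libraries of each sex, and the control at 24 h is Het, although the treatment text speaks of WT slices. The deleted part of Tnfaip6 is not given in the sources used here. Serum-free slices were not analysed here. The other 6 libraries, 3 WT and 3 KO taken at 4 h, were not used by the ranking. Whether the libraries of 1 group are from different animals is not stated, and p-values therefore reflect the spread among libraries, which may be technical.

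The Cxcl10-high libraries were KO male 1 at 134 CPM, KO male 3 at 77.1, KO male 4 at 42.7, Het male 3 at 28.8, KO female 2 at 20.4, Het female 2 at 18.7 and KO female 4 at 18.6. The Cxcl10-low libraries were Het female 1 at 18.5 CPM, Het male 1 at 16.6, KO female 1 at 16.2, KO female 3 at 15.6, Het female 3 at 14.1, KO male 2 at 10.3 and Het male 2 at 8.31. The libraries at ranks 7 and 8 thus lay next to each other, at 18.6 and 18.5 CPM, and the range was long only at the high end. The Cxcl10-high libraries held 5 KO-labelled and 2 Het libraries, and the Cxcl10-low ones held 3 KO-labelled and 4 Het libraries. Genotype was a covariate of the main fit between these groups.

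Totals lay between 8482933 and 18051300 counts, and no pair among the 91 pairs of libraries agreed within sampling noise, with a chi-square statistic of 3.16 to 13.3 per degree of freedom. KO female 2, labelled female, held 1650 Y-linked counts and 0 Xist counts and is called by its label here. The 5 libraries with the highest Cxcl10 thus all carried Y-linked reads, as did 3 of the 7 Cxcl10-low libraries. Of 5 sex-linked genes, 4 were above 0 between the Cxcl10 groups, with a median log2 difference of 0.89. Without KO female 2 the median differences of the interferon-stimulated effectors, the GBP and IRG GTPases, the class I genes, the other chemokines and the cytokines were 0.95, 1.03, 0.47, 0.72 and 0.42, against 0.94, 0.98, 0.46, 0.69 and 0.41 with it. Tnfaip6 lay between 3.43 and 7.87 CPM in the Cxcl10-high and between 3.94 and 8.10 CPM in the Cxcl10-low libraries, and was not lower under the KO label (KO minus Het 0.45 ± 0.15 SE on the log2 scale, edgeR adjusted p = 0.732).

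Cxcl10 is transcribed both when interferons act on a cell and when NF-kB is active. Interferon receptors pass their signal through the kinases Jak1 and Tyk2 to transcription factors such as Stat2 and Irf9, which act at the interferon-stimulated response element (ISRE) of antiviral and antigen presentation genes. NF-kB dimers bind kB sites in cytokine, chemokine and acute phase genes. In the brain both programs are known from microglia, astrocytes, endothelium and meningeal cells.

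The letters of both elements were looked up in promoters of the genes described here, taken from RefSeq for GRCm38.p6 and running from 250 bases before to 50 bases after the start site. The 5 promoters shown belong to Isg15 and Oas1a (interferon-stimulated effectors), Gbp3 (a guanylate-binding protein), B2m (the light chain of class I molecules) and Il6 (a cytokine). Capitals mark matches to GAAANNGAA, a core of the ISRE, or to GGGANTTTC, a core of the kB site, each searched on both strands. The Isg15 promoter is at chr4:156200769-156201068 on the minus strand and has 3 overlapping ISRE matches, the first at position -78 from the start site. The Oas1a promoter is at chr5:120907476-120907775, minus strand, with 2 overlapping ISRE matches from -20. Gbp3 has 2 promoters in the table. The one shown is at chr3:142559794-142560093, plus strand, with 2 overlapping ISRE matches from -44, read there on the opposite strand, and the other, at chr3:142560106-142560405, has no match of either. The B2m promoter is at chr2:122147437-122147736, plus strand, with 1 ISRE match at -139 and 1 kB match at -125, read on the opposite strand. The Il6 promoter is at chr5:30012864-30013163, plus strand, with 1 kB match at -44 and no ISRE match.
Isg15: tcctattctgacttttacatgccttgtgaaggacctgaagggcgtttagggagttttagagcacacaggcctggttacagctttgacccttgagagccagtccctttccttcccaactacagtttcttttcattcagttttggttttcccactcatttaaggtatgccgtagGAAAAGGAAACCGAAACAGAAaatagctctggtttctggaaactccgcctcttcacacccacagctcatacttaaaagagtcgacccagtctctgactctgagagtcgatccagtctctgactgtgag
Oas1a: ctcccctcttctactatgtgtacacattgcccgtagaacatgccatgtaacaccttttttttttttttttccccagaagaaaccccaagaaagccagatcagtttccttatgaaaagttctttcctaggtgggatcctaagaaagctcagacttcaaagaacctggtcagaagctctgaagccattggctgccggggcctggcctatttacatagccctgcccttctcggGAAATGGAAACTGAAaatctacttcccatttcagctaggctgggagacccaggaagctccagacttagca
Gbp3: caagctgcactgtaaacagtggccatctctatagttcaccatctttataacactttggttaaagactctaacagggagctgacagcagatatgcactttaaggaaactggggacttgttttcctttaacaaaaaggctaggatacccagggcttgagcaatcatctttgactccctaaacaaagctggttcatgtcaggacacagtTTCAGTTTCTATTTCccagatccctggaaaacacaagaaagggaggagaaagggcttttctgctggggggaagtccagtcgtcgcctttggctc
B2m: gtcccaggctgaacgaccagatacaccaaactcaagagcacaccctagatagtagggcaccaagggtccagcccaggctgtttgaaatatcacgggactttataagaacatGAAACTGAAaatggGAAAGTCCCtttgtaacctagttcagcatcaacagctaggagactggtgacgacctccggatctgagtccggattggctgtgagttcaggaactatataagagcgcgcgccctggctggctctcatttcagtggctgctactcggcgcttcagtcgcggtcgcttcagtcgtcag
Il6: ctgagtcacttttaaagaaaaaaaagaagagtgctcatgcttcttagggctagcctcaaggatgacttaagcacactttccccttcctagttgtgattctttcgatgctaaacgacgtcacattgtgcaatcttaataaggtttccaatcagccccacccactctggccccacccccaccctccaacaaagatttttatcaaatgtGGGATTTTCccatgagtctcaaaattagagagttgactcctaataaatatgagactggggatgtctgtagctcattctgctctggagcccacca

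The ISRE letters stood in the promoter of 22 of the 35 interferon-stimulated effector genes that had a promoter in the table (62.9%), in 9 of 10 genes of the GBP and IRG families (90.0%) and in 5 of 16 class I genes (31.2%). They stood in 3 of 24 genes of cytokines and NF-kB targets (12.5%), in 2 of 9 other chemokine genes (22.2%), in 9.76% of all 27025 genes and in 8.56% of all 32851 promoters. The kB letters stood in 0 of the 35 effector genes, in 4 of the 24 cytokine and NF-kB genes (16.7%), in 2 of 9 other chemokine genes (22.2%), in 1.29% of all 27025 genes and in 1.11% of all promoters. A match describes the letters in this window and is no proof of a bound site, and a missing match says only that these letters are not there.

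Among the 38 gene lists read, the largest medians belonged to 2 groups of interferon-stimulated genes. The median log2 difference, Cxcl10-high minus Cxcl10-low, was 0.98 for GTPases of the GBP and IRG families and 0.94 for antiviral effectors. It was 0.89 for the 5 sex-linked genes, 0.69 for the other chemokines and 0.46 for class I genes, against -0.01 for all genes. With edgeR, 0 of 15373 genes were higher and 0 were lower at an adjusted p under 0.05 (percent called 0 in each direction), 694 (4.51%) had an unadjusted p under 0.05, 390 (2.54%) higher and 304 (1.98%) lower, and DESeq2 called 28 higher (0.182%) and 0 lower (percent called 0). The alternatives differ in the groups they call. DESeq2 called 14 effectors, 5 GBP and IRG genes and 4 class I genes but 0 other chemokines and 0 cytokines and NF-kB targets. With the log2 level of Cxcl10 as a continuous term, edgeR called 116 genes higher (0.755%) and 2 lower (0.013%). Among those higher were 21 of 30 cytokines and NF-kB targets, 10 of 15 other chemokines and 8 of 16 GBP and IRG genes, but only 2 of 48 effectors and 3 of 18 class I genes. Both sets of calls rest on the Cxcl10 levels that formed the groups, so they are a description and no support. KO male 1, highest in Cxcl10 at 134 CPM, also had the highest level of 28 of the 30 cytokines and 10 of the 15 chemokines. Of all genes, 46.7% had a log2 difference above 0 and 53.3% below. In bulk libraries, fewer cells of a type and less RNA per cell cannot be told apart.

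Among genes with a mean log2 CPM of at least 1, 11 had every Cxcl10-high library above every Cxcl10-low one and 1 had every one below. Over all genes tested these counts were 12 (0.0781%) and 3 (0.0195%). The 11 were Iigp1, Ifi44, Usp18, Gbp6, Oas1a, H2-T23, Irgm2, Stk26, H2-D1, Tap2 and Mafg, and the 1 lower was Triap1. Of these 11, 9 belong to the interferon-stimulated effectors, the GBP and IRG families or class I presentation, and Stk26, a kinase, and Mafg, a small Maf transcription factor, belong to none of these lists.

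Antiviral effectors are the proteins that interferon-treated cells make to destroy or trap viral RNA and particles. Of 50 listed effectors, 48 passed the filter on low counts, and all 48 had a difference above 0, with a median of 0.94 and a range of 0.05 to 1.71. Since those that passed include genes kept through the libraries in which they are high, this count is a description. The filter was the same for every list, so the counts above 0 given below are descriptions too. Of all genes tested, 46.7% were above 0. Oas1a, which makes the 2-5A messenger that activates an antiviral RNase, was 3.99, 5.57, 5.33, 6.72, 4.77, 5.41 and 2.78 CPM in the Cxcl10-high libraries, in falling order of Cxcl10. In the Cxcl10-low libraries it was 2.57, 2.36, 2.63, 1.18, 1.49, 2.37 and 2.57 CPM. The groups did not overlap, and the log2 difference was 1.28 ± 0.21 (SE), although the gap at the boundary between 2.78 and 2.63 CPM was narrow.

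Isg15, a ubiquitin-like protein that is joined to other proteins, was 10.8, 22.9, 19.5, 16.1, 13.1, 13.1 and 6.51 CPM in the Cxcl10-high libraries. It was 5.82, 4.04, 9.45, 1.63, 4.30, 3.09 and 6.45 CPM in the Cxcl10-low ones, a log2 difference of 1.56 ± 0.32. Only KO female 4 among the Cxcl10-high libraries lay within the Cxcl10-low range, and KO female 3 was the lowest of all 14. Usp18, the protease that removes Isg15, had no overlap (4.13 to 12.2, median 6.71 CPM, against 1.01 to 3.98, median 3.14) and differed by 1.41 ± 0.30. Ifi44, an interferon-induced protein of the cytoplasm, ran from 3.33 to 11.5 CPM with a median of 5.51, against 0.843 to 3.23 with a median of 2.17, a log2 difference of 1.56 ± 0.32. Oasl2, a relative of Oas1a, ran from 21.7 to 63.7 CPM (median 32.4) against 6.86 to 22 (median 18.7), a difference of 1.37 ± 0.27 in which only 1 high library lay within the low range.

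Bst2 (tetherin), which holds budding virus at the cell surface, ran from 16.2 to 38.1 CPM (median 24.2) against 7.24 to 16.5 (median 15.6), a log2 difference of 1.08 ± 0.21. Parp9, which partners with the ubiquitin ligase Dtx3l, ran from 9.76 to 14.4 CPM (median 12.4) against 6.41 to 11.1 (median 8.24), a difference of 0.65 ± 0.12. For each of these, 6 of 7 Cxcl10-high libraries stood above the highest Cxcl10-low one. Parp9 and Dtx3l overlap on opposite strands, and since the strand setting is not given in the sources used here, their reads cannot be told apart. In GRCm38, Oas1a (ENSMUSG00000052776) lies on chromosome 5 at 120896256 to 120907521, minus strand, and Isg15 (ENSMUSG00000035692) on chromosome 4 at 156199424 to 156200818, minus strand, both with no overlapping gene.

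**Figure D1:**
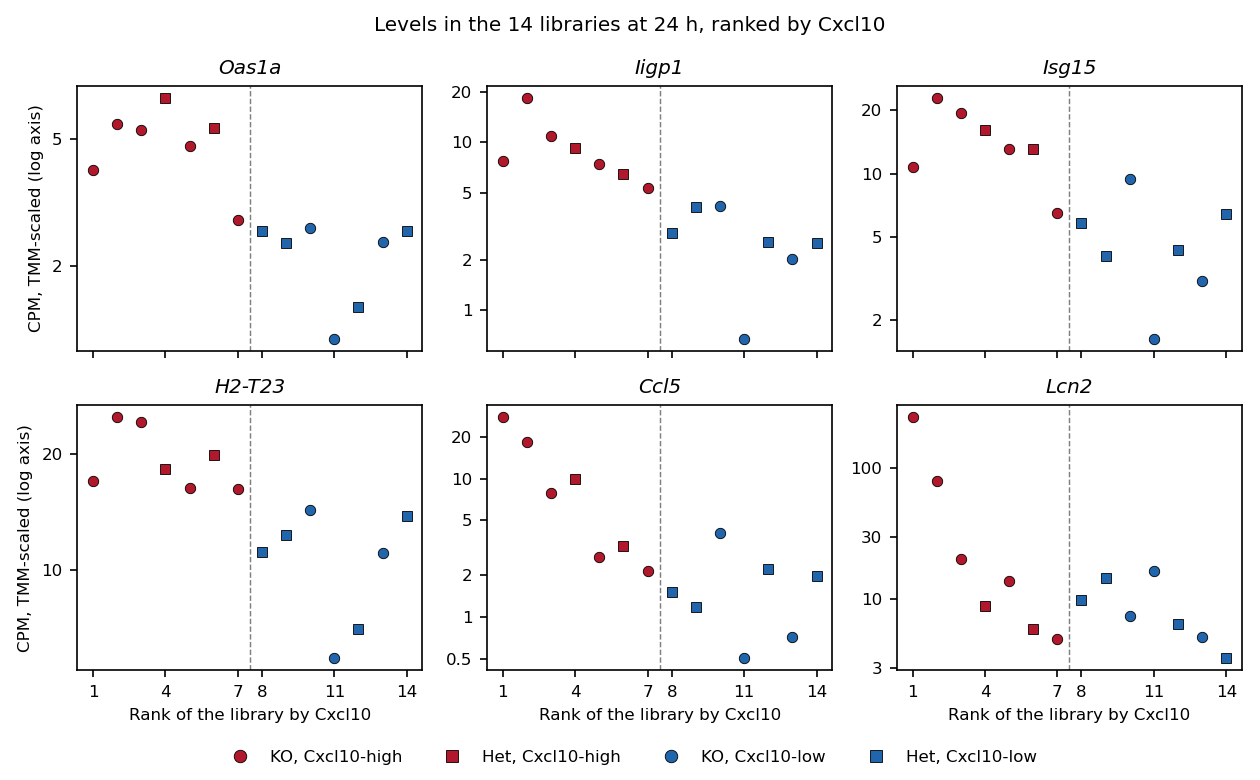
TMM-scaled CPM (log axis) of 6 genes in each of the 14 libraries at 24 h, against the rank by Cxcl10 (1 is highest), with KO-labelled libraries as circles, Het libraries as squares and a dashed line between ranks 7 and 8. Oas1a, Iigp1 and H2-T23 do not overlap across the line, whereas Lcn2 stands out in KO male 1 and KO male 3 (241 and 78.7 CPM) and is at 20.3 CPM or less elsewhere.

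The GBP and IRG families are large GTPases that attack the membranes around intracellular pathogens. Of 23 listed members, 20 were found among the 24 h genes and 16 passed the filter. All 16 differences were above 0, with a median of 0.98 and a range of 0.22 to 1.80. Iigp1 was 7.76, 18.4, 11, 9.25, 7.38, 6.48 and 5.32 CPM in the Cxcl10-high libraries. In the Cxcl10-low libraries it was 2.87, 4.14, 4.20, 0.675, 2.56, 2.02 and 2.51 CPM. Its groups did not overlap and differed by 1.80 ± 0.34, and apart from KO male 1 the Cxcl10-high values fell in the order of Cxcl10.

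Gbp3 was 18.5, 33.8, 27.4, 22.7, 17.5, 20.1 and 11.3 CPM in the Cxcl10-high libraries. It was 12.8, 15.9, 10.7, 8.99, 10.3, 7.36 and 10.8 CPM in the Cxcl10-low ones, a log2 difference of 1.05 ± 0.21 with KO female 4 alone inside the low range. Igtp (Irgm3) ran from 5.08 to 13.9 CPM (median 7.48) against 2.79 to 5.78 (median 3.97), a difference of 0.96 ± 0.22, and Irgm1, a regulator of the other IRG proteins, from 20.6 to 39.9 (median 28.1) against 13.9 to 25.9 (median 20.6), a difference of 0.64 ± 0.15. Tgtp1 and Tgtp2 are near-identical copies, so their single values are uncertain. Gbp3 (ENSMUSG00000028268) lies on chromosome 3 at 142560026 to 142573209, plus strand.

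The interferon pathway itself was uneven. Of the 21 ligands, receptors and factors listed, 18 passed the filter, 16 were above 0 and the median was only 0.10. The ligands Ifnb1, Ifna4 and Ifng had 5, 0 and 3 counts summed over the 14 libraries, too few to compare, and 0 counts allow up to 3. The receptor genes Ifnar1, Ifnar2, Ifngr1 and Ifngr2 differed by 0.06, 0.10, 0.00 and -0.07, and the kinases Jak1 and Tyk2 by 0.04 and 0.11.

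The factors that are themselves interferon-stimulated differed more. Irf7, which amplifies type I interferon, was 13.1, 30.9, 32.1, 27.5, 21.8, 19.4 and 12.4 CPM in the Cxcl10-high libraries. It was 11.1, 7.88, 12.8, 2.08, 6.04, 8.19 and 12.8 CPM in the Cxcl10-low ones, a log2 difference of 1.44 ± 0.32. Both KO male 1 and KO female 4 were near the top of the low range, and 5 libraries stood clear of it. Irf9 differed by 0.44 ± 0.12 and Stat2 by 0.35 ± 0.12, with 5 and 4 of the 7 Cxcl10-high libraries above the low range.

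Sensors of nucleic acids start interferon production when RNA or DNA appears in the wrong place. All 16 listed sensors passed the filter, 13 were above 0 and the median was 0.25. Ifih1 (MDA5), a sensor of long double-stranded RNA, ran from 8.73 to 16.6 CPM (median 12.5) against 5.58 to 9.23 (median 7.11), a log2 difference of 0.78 ± 0.15. Zbp1, a sensor of Z-form nucleic acid that can start cell death, differed by 1.24 ± 0.35, and Dhx58 (LGP2) by 0.98 ± 0.32. The adaptor Mavs differed by 0.05, Tlr7 by 0.04, Tlr9 by 0.06 and Cgas by -0.35.

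Class I molecules show peptides from inside the cell to T cells. All 18 listed genes of this route passed the filter and were above 0, with a median of 0.46. H2-D1, a classical class I heavy chain, was 104, 120, 109, 117, 97.3, 99.0 and 94.4 CPM in the Cxcl10-high libraries. In the Cxcl10-low libraries it was 78.8, 78.3, 93.8, 71.3, 77.1, 76.6 and 83.7 CPM. The difference of 0.41 ± 0.07 was small beside that of the effectors, yet the groups did not overlap. H2-T23, which encodes the nonclassical molecule Qa-1, was 17, 24.9, 24.1, 18.2, 16.3, 19.8 and 16.2 CPM against 11.1, 12.3, 14.3, 5.90, 7.03, 11 and 13.8 CPM, again with no overlap and a difference of 0.87 ± 0.19.

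H2-K1, the other classical heavy chain, ran from 38.4 to 61.4 CPM (median 51.5) against 26.9 to 38.8 (median 32.9), a log2 difference of 0.60 ± 0.12. B2m ran from 58.6 to 103 CPM (median 92.5) against 51.3 to 81.6 (median 64.6), a difference of 0.46 ± 0.12 with 3 high libraries inside the low range. Tap1, a subunit of the peptide transporter, differed by 0.51 ± 0.12, and Psmb8 and Psmb9, subunits of the immunoproteasome, by 0.47 and 0.40. Heavy chain genes resemble each other and Tap1 overlaps Psmb9 on the opposite strand, so the split of reads among them is uncertain. H2-D1 (ENSMUSG00000073411) lies on chromosome 17 at 35262730 to 35267499, plus strand. Class II genes, which present outside antigen, had 3 of 7 members above 0 and a median of -0.02.

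**Figure D2:**
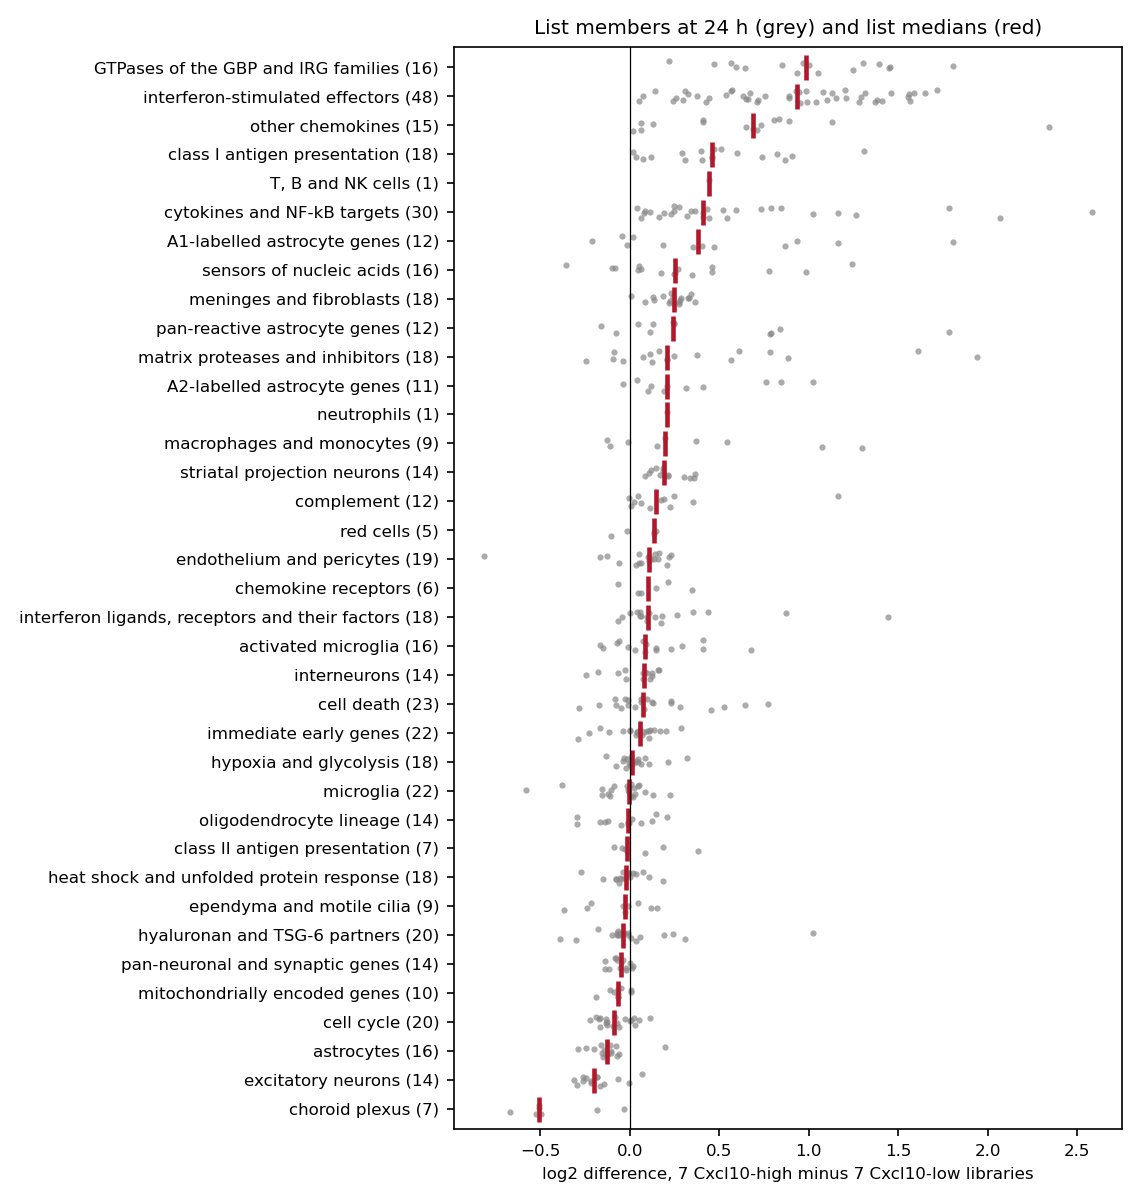
Log2 difference between the 7 Cxcl10-high and 7 Cxcl10-low libraries for each list member that passed the filter (grey points) and the list median (red bars), with the number of genes in brackets. The list of sex-linked genes (median 0.89) is not drawn. The GBP and IRG GTPases (0.98), the interferon-stimulated effectors (0.94), the other chemokines (0.69) and class I genes (0.46) lie to the right, microglia markers (-0.00) lie at 0, and excitatory neuron (-0.20) and choroid plexus (-0.50) markers lie to the left.

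Chemokines and cytokines also stood higher, but with 1 library far above the rest. All 15 other chemokines that passed the filter, of 20 listed, were above 0, with a median of 0.69. All 30 of the 35 listed cytokines and NF-kB targets that passed were above 0, with a median of 0.41. Without KO male 1, the library of highest Cxcl10, these medians were 0.21 and 0.20, while those of the effectors, the GBP and IRG families and class I genes were 0.98, 1.00 and 0.47.

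Ccl5, a chemokine for T cells and monocytes with both interferon and NF-kB input, was 27.8, 18.4, 7.88, 9.94, 2.71, 3.28 and 2.14 CPM in the Cxcl10-high libraries. It was 1.51, 1.18, 4.05, 0.506, 2.23, 0.712 and 2.00 CPM in the Cxcl10-low ones. The 4 libraries of highest Cxcl10 stood apart and the other 3 lay in the low range, for a log2 difference of 2.34 ± 0.60. With 1 library left out, the difference ran from 2.01 (without KO female 3) to 2.77. Ccl5 (ENSMUSG00000035042) lies on chromosome 11 at 83525778 to 83530518, minus strand.

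Ccl2, the main chemokine of monocytes, was 129, 43.2, 25.2, 21.1, 33.3, 18.4 and 19.1 CPM against 19.7, 29.9, 21.2, 21.1, 16.6, 18.2 and 10.6 CPM. Its difference of 0.81 ± 0.41 became 0.36 without KO male 1. Ccl12, Ccl9 and Ccl7, further chemokines of myeloid cells, differed by 0.73 ± 0.27, 0.65 ± 0.24 and 0.89 ± 0.40, and each was highest in KO male 1. Without it the differences were 0.56, 0.43 and 0.51. Cxcl9 and Cxcl11, which share the receptor of Cxcl10, did not pass the filter, with 42 and 45 counts over the 14 libraries.

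Lcn2, an iron-binding acute phase protein of reactive astrocytes, was 241, 78.7, 20.3, 8.96, 13.8, 5.95 and 5.00 CPM in the Cxcl10-high libraries. It was 9.90, 14.6, 7.5, 16.3, 6.53, 5.22 and 3.59 CPM in the Cxcl10-low ones. Only 3 high libraries exceeded the low range, and the log2 difference of 1.78 ± 0.85 became 0.88 without KO male 1. Lcn2 (ENSMUSG00000026822) lies on chromosome 2 at 32384633 to 32388252, minus strand.

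Csf3, a growth factor of neutrophils, was 41.4, 5.85, 0.955, 1.66, 1.31, 0.0762 and 1.35 CPM against 0.285 to 1.43 CPM with a median of 0.662. Saa3, an acute phase protein, was 124, 32.8, 4.30, 2.82, 4.11, 4.12 and 2.30 CPM against 2.02 to 6.01 CPM with a median of 3.90. Il6, an inflammatory cytokine, was 15.5, 2.32, 0.796, 1.36, 1.78, 0.991 and 0.794 CPM against 0.356 to 2.78 CPM with a median of 0.827. For all of them the high group was carried by KO male 1, followed by KO male 3, and the rest lay within or close to the low range. For Il6, KO male 3 at 2.32 CPM lay within the low range as well. The differences of Csf3, Saa3 and Il6, at 2.58 ± 1.04, 2.07 ± 1.00 and 1.26 ± 0.69, became 1.09, 1.00 and 0.28 without KO male 1.

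Ptx3, a pattern-recognition protein that TSG-6 binds in hyaluronan matrix, ran from 20.1 to 277 CPM (median 49.1) against 15.9 to 45.9 (median 32.6), a log2 difference of 1.03 ± 0.52. Ptgs2, which makes prostaglandins, ran from 11.6 to 84.2 CPM (median 15.9) against 6.10 to 17.8 (median 12.5), a difference of 0.84 ± 0.40. These became 0.47 and 0.37 without KO male 1. The transcription factor genes varied less, and Relb ran from 11 to 24.7 CPM (median 14) against 7.03 to 12.2 (median 9.44), a difference of 0.54 ± 0.15, while Nfkb1 differed by 0.25 ± 0.08.

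The libraries of high Cxcl10 thus showed different mixtures of the groups. Of the 30 cytokines and NF-kB targets, 28 had their highest level of all 14 libraries in KO male 1, as did 10 of the 15 other chemokines, against 7.73% of all genes. Of the 48 interferon-stimulated effectors, 32 had their highest level in KO male 3, 10 in KO male 4, 4 in Het male 3 and 1 in KO male 1. Of the 16 GBP and IRG genes, 12 were highest in KO male 3, against 5.91% of all genes.

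A list score, the mean over members of log2 CPM centred on each gene's mean, gives the same by library. For the interferon-stimulated effectors it was 0.02 in KO male 1, 0.99 in KO male 3, 0.75 in KO male 4, 0.63 in Het male 3, 0.29 in KO female 2, 0.40 in Het female 2 and -0.11 in KO female 4. It ran from -1.35 in KO female 3 to 0.02 in KO female 1 in the Cxcl10-low libraries, so KO male 1 lay at the top of the low range. For cytokines and NF-kB targets the score was 1.66 in KO male 1, 0.63 in KO male 3 and 0.12 in KO male 4, and between -0.40 and 0.05 in the other 4 high libraries, against -0.60 to 0.02 in the low ones.

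**Figure D3:**
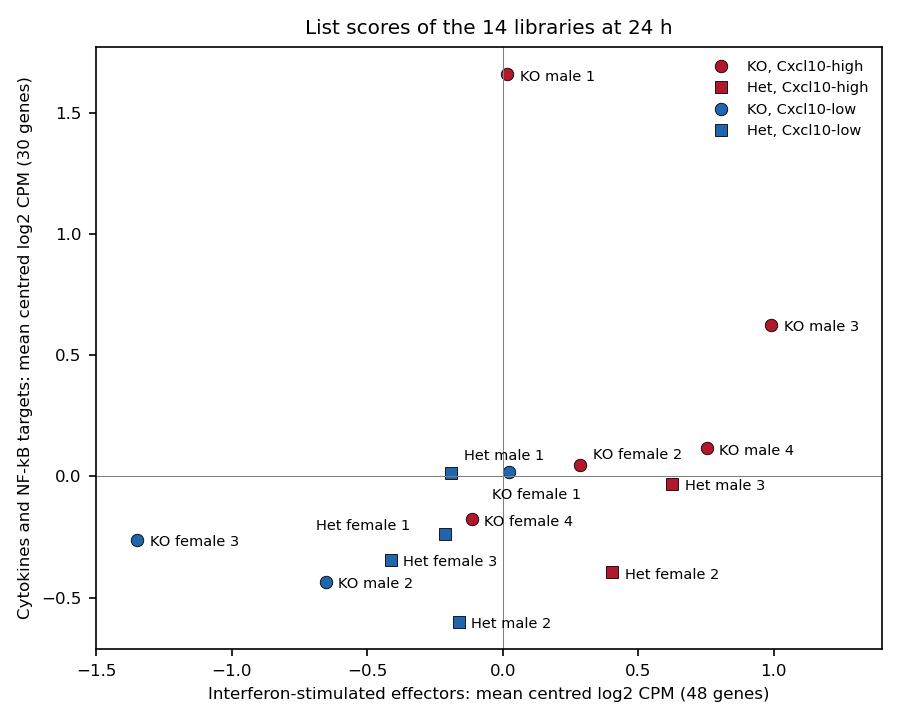
List scores (mean centred log2 CPM) of the 14 libraries at 24 h, with interferon-stimulated effectors (48 genes) on the horizontal and cytokines and NF-kB targets (30 genes) on the vertical axis, coloured by Cxcl10 group. KO male 1 has the highest cytokine score (1.66) with an effector score of 0.02, whereas KO male 3, KO male 4 and Het male 3 have the highest effector scores (0.99, 0.75 and 0.63).

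Reactive astrocyte genes, complement and matrix proteases had smaller medians. Of 12 complement genes, 11 were above 0, with a median of 0.14, as were 14 of 18 matrix proteases and inhibitors, with a median of 0.21. Of 12 pan-reactive astrocyte genes, 10 were above 0, with a median of 0.24, or 0.15 without KO male 1, in which 9 of the 12 had their highest level. The list of genes labelled A1, which contains Iigp1, Gbp2, H2-T23, H2-D1 and Psmb8, had 9 of 12 above 0 and a median of 0.38, and the list labelled A2 had 10 of 11 and 0.21. C3, the central complement protein, was 46.8 CPM in KO male 1 and 24.6 in KO male 3 and ran from 5.48 to 9.53 in the other Cxcl10-high libraries, against 3.89 to 8.04 in the low ones, a log2 difference of 1.16 ± 0.43, or 0.75 without KO male 1. Timp1, an inhibitor of matrix proteases, ran from 23.4 to 136 CPM (median 30.7) against 19.0 to 33.5 (median 23.9), a difference of 0.78 ± 0.34, or 0.40 without KO male 1. Mmp12, the macrophage elastase, ran from 8.76 to 40.6 CPM (median 18.4) against 9.14 to 12.6 (median 10.7), a difference of 0.89 ± 0.27 with 5 high libraries above the low range.

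Among 20 hyaluronan genes and partners of TSG-6, 7 were above 0 and the median was -0.04, and Tnfaip6 itself differed by 0.01 ± 0.16. The hyaluronan synthase Has2 differed by 0.31 and the hyaluronan receptor Cd44 by 0.24 ± 0.13, and the proteoglycan Acan by -0.39.

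Markers of the cells that could make these transcripts were read beside them. All 22 microglia markers passed the filter, 10 were above 0, the median was -0.00 and the range -0.58 to 0.23, and their summed level was 543 to 776 CPM in the Cxcl10-high and 569 to 786 CPM in the Cxcl10-low libraries. Of 14 T, B and NK cell markers, only Cd4 passed (difference 0.44 ± 0.17), and the other 13 had 0 to 72 counts over all 14 libraries, 2 of them (Cd3e and Ncr1) 0. Of 10 neutrophil markers, only Csf3r passed (0.21 ± 0.24), and the other 9 had 1 to 29 counts. Macrophage and monocyte markers had 6 of 9 above 0 with a median of 0.20 and a summed level of 45.8 to 124 against 39.2 to 73.8 CPM, with Ccr2 at 9 and Ly6c2 at 4 counts in all. Plac8 (1.30 ± 0.39) and Ms4a4c (1.07 ± 0.55) led that list at medians of 1.45 and 1.4 CPM against 0.604 and 1.03.

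Tissue markers also differed. Meninges and fibroblast markers had 18 of 18 above 0 (median 0.24, summed level 1168 to 1652 against 648 to 1749 CPM), endothelium and pericyte markers 15 of 19 (0.11) and striatal markers 14 of 14 (0.19). Choroid plexus markers had 0 of 7 above 0 (median -0.50, summed level 155 to 214 against 132 to 309 CPM), excitatory neuron markers 1 of 14 (-0.20) and astrocyte markers 1 of 16 (-0.13). Without KO female 3, whose choroid plexus score of 1.30 was the highest and whose meninges score of -0.91 was the lowest, the medians were 0.08 for meninges, 0.05 for endothelium and pericytes, 0.05 for striatum, -0.10 for choroid plexus, -0.04 for astrocytes and 0.0028 for the macrophage and monocyte markers, and the excitatory neuron median was -0.20. KO female 3 also had the lowest effector score, and without it the medians were 0.76 for the effectors, 0.89 for the GBP and IRG families, 0.40 for class I genes and 0.50 for the other chemokines. The part of slice composition in the inflammatory differences was not tested.

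The genes most clearly lower in the Cxcl10-high libraries differed by little. Prdm8, a repressor of neuronal development genes, ran from 13.8 to 19.2 CPM (median 16.1) against 13.9 to 27.5 (median 19.2), a log2 difference of -0.37 ± 0.09. Ptger3, a prostaglandin E2 receptor, differed by -0.30 ± 0.08, Eepd1, a nuclease-like protein, by -0.22 ± 0.06, Sobp by -0.20 ± 0.05 and Lsm6, a subunit of an RNA-binding ring, by -0.19 ± 0.05. The groups overlapped for all 5. Neurod6 and Neurod2, transcription factors of cortical excitatory neurons, differed by -0.31 ± 0.11 and -0.22 ± 0.07, and 2 of 7 Cxcl10-high libraries lay below the low range for each.

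The labels were then tested for the same genes, since the ranking did not use them. For KO minus Het with sex as covariate, edgeR called 0 of 16013 genes at an adjusted p under 0.05 (percent called 0), with 1056 (6.59%) at an unadjusted p under 0.05. The interferon-stimulated effectors had a KO minus Het median of 0.07 with 32 of 48 above 0, beside 49.9% of all genes. The GBP and IRG families had 15 of 16 above 0 (0.43), the other chemokines 12 of 15 (0.41) and the cytokines and NF-kB targets 29 of 30 (0.46). Oas1a differed by 0.00 ± 0.34 (edgeR adjusted p = 0.999), Isg15 by 0.33 ± 0.44 (0.93), Lcn2 by 2.05 ± 0.73 (0.732) and Csf3 by 2.95 ± 0.95 (0.732). Single libraries weighed on these medians. Without KO male 1 those of other chemokines and cytokines were 0.16 and 0.24. Without Het male 2 that of the GBP and IRG families was 0.23 and that of other chemokines 0.21, and without KO male 3 the GBP and IRG median was 0.24. The effector median was at or below 0 without KO male 3 (-0.03), without Het male 2 (-0.01) and without KO male 4 (-0.00).

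For males minus females with genotype as covariate, edgeR called 3 of 16013 genes (0.0187%), namely Xist, Kdm5c and Eif2s3x, and 755 (4.71%) had an unadjusted p under 0.05. By label, the effectors had a male minus female median of 0.42 with 46 of 48 above 0, the GBP and IRG families 0.50 with 16 of 16, class I genes 0.26 with 16 of 18 and the cytokines 0.35 with 29 of 30, beside 48.4% of all genes. None of the members of these lists was called. Without KO female 2, a step chosen after seeing the data, edgeR called 9 of 16010 genes (0.0562%), among them Xist and the Y-linked Ddx3y, Kdm5d, Uty and Eif2s3y, and again no member of these lists. The medians were then 0.50 for the effectors with 47 of 48 above 0, 0.56 for the GBP and IRG families with 16 of 16, 0.28 for class I genes with 17 of 18 and 0.35 for the cytokines with 29 of 30, beside 49.6% of all genes. Ccl5 differed by 1.91 ± 0.61 (edgeR adjusted p = 0.978). The Cxcl10-high libraries held 4 male-labelled and 3 female-labelled libraries, of which KO female 2 carried Y-linked reads, so sex and the Cxcl10 group overlapped in part.

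The Cxcl10 split was described within labels too. Among libraries labelled male alone, the medians were 0.99 for the effectors, 1.42 for the GBP and IRG families, 0.61 for class I genes and 0.72 for the cytokines. Among those labelled female alone they were 0.64, 0.46, 0.27 and 0.01. Of the 3 Cxcl10-high libraries in that subset, KO female 2 carries Y-linked reads, and without it, a step chosen after seeing the data, the medians were 0.57, 0.36, 0.25 and -0.05. Among Het libraries alone they were 0.74, 0.65, 0.44 and 0.13, and among KO-labelled libraries alone 0.97, 1.12, 0.44 and 0.59. The interferon groups were above 0 in each subset, whereas the cytokine median was near 0 in the libraries labelled female. Each subset reuses libraries of the same split, so this is a description and no independent support. Whether sexes or genotypes differ in this was not tested.

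The 6 libraries at 4 h, which the ranking at 24 h did not use, were also ranked by Cxcl10 and only described. Their differences are plain means with another scale and filter and no genotype covariate. Medians at 4 h and at 24 h are therefore not like for like. edgeR on the reads recovered from that table called 0 of 15255 genes between these groups, with 613 (4.02%) at an unadjusted p under 0.05. Their Cxcl10 levels were 333 (WT 2), 267 (KO 2), 225 (WT 1), 185 (KO 1), 84.4 (KO 3) and 76.2 (WT 3) normalised reads, and the 3 highest were set against the 3 lowest on the log2(value + 1) scale. Of the 39 interferon-stimulated effectors with a mean of at least 10 normalised reads, 36 were above 0, with a median of 0.44, beside 50.2% of all 15180 genes. The GBP and IRG families had 11 of 12 above 0 (0.49), class I genes 14 of 16 (0.13), other chemokines 11 of 13 (0.38) and cytokines and NF-kB targets 20 of 30 (0.10). All 3 higher libraries stood above all 3 lower ones for 8 of the 39 effectors, 4 of 12 GBP and IRG genes and 5 of 13 chemokines. The same held for 6 of 30 cytokines and NF-kB targets and 2 of 16 class I genes, beside 811 genes in all (5.34%). All 3 stood below for 2 cytokines and NF-kB targets, beside 640 genes in all. Meninges and fibroblast markers were above 0 in 16 of 16 (0.37), cell cycle genes in 20 of 20 (0.23) and mitochondrially encoded genes in 0 of 10 (-0.21), and the part of these in the result was not tested.

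Of the 11 genes without overlap at 24 h, 10 were above 0 at 4 h, with a median of 0.31, beside 50.2% of all genes. At 4 h, 1 of the 11 had all 3 higher libraries above the others, beside 5.34% of all genes. Cxcl10 ranked the libraries at both times, so these counts are a description. Isg15 was 76.9, 29.1 and 43.3 normalised reads in the 3 libraries of high Cxcl10, in falling order, and 43.9, 26.2 and 23.4 in the others, a log2 difference of 0.60 with overlap. Oasl2 was 69.0, 55.6 and 59.2 against 52.7, 22.8 and 19.3, without overlap and with a difference of 1.07. Ccl5 was 30.5, 14.1 and 11.5 against 14.3, 3.42 and 6.10, a difference of 1.21 in which KO 1 overlapped the high group. Ccl2 was 125, 104 and 105 against 73.5, 79.9 and 75.2, without overlap and with a difference of 0.54. Gbp3 did not follow, at -0.09, and H2-D1 and H2-T23 both differed by 0.08.

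**Figure D4:**
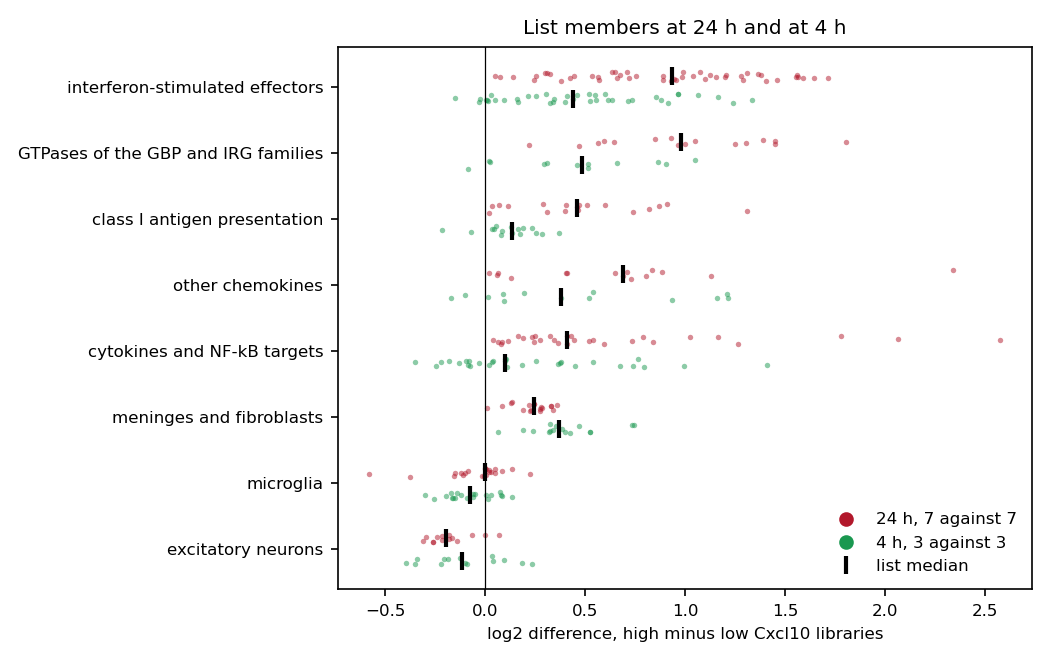
Log2 difference between high and low Cxcl10 libraries for members of 8 lists at 24 h (red, 7 against 7) and at 4 h (green, 3 against 3, log2(value + 1) scale), with list medians in black. The effector medians are 0.94 at 24 h and 0.44 at 4 h, those of the GBP and IRG families 0.98 and 0.49, and microglia markers lie near 0 at both times.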

How the data were processed

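RNA-seq of cultured forebrain slices was read in 14 libraries at 24 h and 6 at 4 h. At 24 h the values deposited by the authors are raw counts for 51912 gene identifiers, of which 51633 had a symbol in the supplied reference table. At 4 h they are a deposited signal for 19722 genes, which equals counts divided by a factor of each library. Dividing by the worth of 1 read gave whole reads for 100% of values (tolerance 0.05). Per the submitters' processing notes, the build was GRCm38 (mm10), and the tools were TopHat2, HTSeq and DESeq2 1.38.3. Not given in the sources used here were the annotation release and the strand setting.

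Differences at 24 h are log2 fold changes from edgeR 4.0.16 under R 4.3.3 (TMM scaling, default expression filter, quasi-likelihood fit, genotype as covariate), with their standard errors. Adjusted p-values are Benjamini-Hochberg values from edgeR with a threshold of 0.05, two-sided. Levels are TMM-scaled CPM, whereas the ranking used CPM of the library total. At 4 h, mean log2(value + 1) was compared for genes averaging at least 10, which understates changes of low genes. The scripts were tested on simulated data. Promoter motifs were first searched with 1 base more, which gave fewer matches.

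The members and the 38 gene lists were chosen with earlier results of these data known. Genes named are, by rule, the 10 higher and 5 lower genes with the smallest p and a mean log2 CPM of at least 1, since none was called, up to 4 members per list with the smallest p, Tnfaip6 and the defining markers. A gene that the rule names is not reported here. Isg15, Usp18, B2m, Ccl2, Il6, Csf3, Saa3, the genes without overlap and other list members were chosen after their values were seen. Alternatives were other splits by rank, Cxcl10 as a continuous term, other scaling, filters, covariates and tools, each label alone, the replicate number as a block, and each library left out. The totals of 8482933 to 18051300 counts set the precision of low genes, and counting error is only part of their spread.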

Additional observations from a re-analysis of the deposited data

Results flagged for a closer look

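In 182 groups of 7 libraries, formed by named genes and list scores in the Cxcl10-high or Cxcl10-low libraries, 27 had 1 library far from the other 6 (a gap of over 0.568 of the whole range). For independent values from a normal distribution, chance gives this in about 1 in 20 groups. The groups here share the same libraries, cut by Cxcl10, and some of the genes were chosen after their values were seen. The count of 27 can therefore not be set against that share.

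KO male 1 stood far above the other Cxcl10-high libraries for chemokines, with Ccl2 at 129, Ccl9 at 41.6, Ccl7 at 26.5 and Ccl12 at 14.7 CPM. It did so for cytokines and acute phase genes, with Ptx3 at 277, Lcn2 at 241, Saa3 at 124, Csf3 at 41.4, Lif at 34.3 and Il6 at 15.5 CPM. The same held for Timp1 at 136, Cp (ceruloplasmin) at 132, Ptgs2 at 84.2, Cd14 (a co-receptor for bacterial lipopolysaccharide) at 66.3, Nfkb1 at 51.3 and Relb at 24.7 CPM. Its list scores were 0.97 for matrix proteases and inhibitors and 0.48 for chemokine receptors, both the highest of that group.

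KO male 3 stood above the other Cxcl10-high libraries for Aqp1, a water channel of choroid plexus, at 19.7 CPM. Among the Cxcl10-low libraries, KO female 3 was lowest for Trim25, a ubiquitin ligase of RNA sensing, at 17.9 CPM, with list scores of -0.44 for sensors of nucleic acids and -1.24 for macrophages and monocytes. It was highest for C3 at 8.04 CPM and for the hypoxia and glycolysis score at 0.27. KO female 1 was highest among them for Timp1 at 33.5 and Il6 at 2.78 CPM, with an endothelium and pericyte score of 0.25.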

How the results depend on the processing

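Over 30 alternatives the median differences were 0.51 to 1.08 for the interferon-stimulated effectors, 0.36 to 1.42 for the GBP and IRG families, 0.25 to 0.61 for class I genes, -0.06 to 0.99 for the other chemokines and -0.05 to 0.72 for cytokines and NF-kB targets. The GBP and IRG median was 0.46 in libraries labelled female alone. The median of other chemokines was 0.071 there and 0.20 in Het libraries alone. In the libraries labelled female without KO female 2, chosen after seeing the data, the GBP and IRG, class I, chemokine and cytokine medians were 0.36, 0.25, -0.056 and -0.05. With 1 library left out, the chemokine median ran from 0.21 (without KO male 1) to 0.81.

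The number of genes called between the Cxcl10-high and Cxcl10-low libraries, 0 higher and 0 lower with edgeR, became 3 and 0 with the 5 highest against the 5 lowest, and 116 and 2 with Cxcl10 as a continuous term. Of the 11 higher genes without overlap, the continuous term called 2 (Gbp6 and Irgm2) and DESeq2 7, beside 0.755% and 0.182% of all genes called higher. These 11 were chosen by the same Cxcl10 levels in the same libraries, so this is a description and no support. The number of genes called became 28 and 0 with DESeq2, 132 and 29 with no filter on low counts, and 81 and 47 in Het libraries alone. With 1 library left out it was 0 to 1 higher and 0 to 0 lower, the 1 arising without KO female 1 and without KO female 4. The causes of these changes were not tested. Leaving out both libraries at ranks 7 and 8, chosen after seeing the data, called 0 and 0.

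Of male minus female, edgeR called 3 genes, and 9 without KO female 2.

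Of KO minus Het, edgeR called 0 genes, DESeq2 7 and edgeR with no filter 105. With 1 library left out it was 0 to 2, the 2 arising without KO female 3 and without Het male 3. With the replicate number as a block it called 1, and on the Cxcl10 split the block called 0 and 0. Libraries with the same number in their titles did not deviate together (r of -0.15 to 0.20 over 19 pairs, against -0.20 to 0.21 over 54 other pairs), so these numbers are not treated as a pairing. The submitters' descriptions number some libraries otherwise, and a pairing by those numbers was not tested. At 4 h, the share of effectors above 0 was 92.3% with a pseudocount of 1 or 10 and 93.9% with no filter, and that of cytokines and NF-kB targets 66.7%, 66.7% and 64.7%.

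The depth limits low genes most, and Csf3 at 0.0762 CPM in Het female 2 is about 1 read.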

Other observations

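Cell death genes had 15 of 23 members above 0 in the Cxcl10-high libraries, with a median of 0.07. Casp4, an inflammatory caspase that senses bacterial lipopolysaccharide, differed by 0.77 ± 0.26 (SE; 1.75 to 4.88 CPM, median 2.71, against 0.856 to 1.90, median 1.77). Mlkl, the executor of necroptosis, differed by 0.65 ± 0.23, whereas its activating kinase Ripk3 differed by -0.08, and Bax and Bak1, which open the outer mitochondrial membrane, by -0.08 and 0.06. Immediate early genes had 17 of 22 above 0 (median 0.05), cell cycle genes 6 of 20 (-0.09) and genes of hypoxia and glycolysis 10 of 18 (0.01). Lists of oligodendrocyte lineage, interneuron and pan-neuronal markers had medians of -0.01, 0.08 and -0.05.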
